A study of Drosophila melanogaster with 3 samples.

Results

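The egg activation and maternal mRNA control genes of the fruit fly were described here as places where tagged Grauzone was or was not found on chromatin. They were taken as a fixed list of symbols, png, plu, gnu, smg, sra, wisp, endos, gwl and mtrm, and all 9 were found among the 13945 protein-coding genes on the chromosome arms that carry peaks in the Ensembl dm6 annotation. Peaks came from ChIP-seq (chromatin immunoprecipitation with sequencing), an assay that recovers and sequences the DNA held by a protein. There was 1 group of 3 biological replicates. Each was made from whole Drosophila melanogaster embryos of both sexes, collected at 0 to 24 hours, from a transgenic line named grau that stably carries a grau-eGFP fusion, with GFP (green fluorescent protein) at the C terminus, and the antibody recognised GFP. The promoter driving the fusion is not given in the sources used here, and no untagged group was analysed here, so the values have no background measured the same way. Grauzone is a zinc finger protein known for activating cort, which encodes an activator of the anaphase-promoting complex in the egg.

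Egg activation is the step at which a mature, arrested egg resumes and completes meiosis and changes which maternal mRNAs it translates. In Drosophila it depends on a calcium signal and on calcineurin, and it is followed by the clearance of maternal mRNA. The PNG kinase acts in its change of translation. Egg activation comes before the embryo forms, and these data come from embryos, so the peaks say where the tagged protein lay after that step.

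A peak's point source is its most enriched base, and a promoter peak here has its point source within 500 bp of an annotated transcription start. The reproducible list, which the deposited descriptions name as an optimal set by irreproducible discovery rate (IDR), gave 5 of the 9 genes a promoter peak, namely smg, gwl, plu, endos and sra. Of all protein-coding genes, 32.1% had one. The list placed 13 point sources in or within 5 kb of the 9 genes, near 6 of them, and 63.8% of all protein-coding genes had at least 1 in such a window. The median was 1 per gene both for the 9 genes and for all protein-coding genes. The genes png, wisp and mtrm had no reproducible point source in their windows. In the pooled list, called on the alignments of all replicates together, the same count of 5 had a promoter peak, against 47.9% of all protein-coding genes. In the replicate lists taken singly the count was 5 in replicate 1, 4 in replicate 2 and 5 in replicate 3, against 50.8%, 51.6% and 47.5% of all protein-coding genes. Each of the 3 replicate lists had a promoter point source for 4 genes, plu, smg, sra and endos, against 39.5% of all protein-coding genes. This count did not require the same start or the same position in each list. The list holds few genes, and no test was made of these counts.

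**Figure D1:**
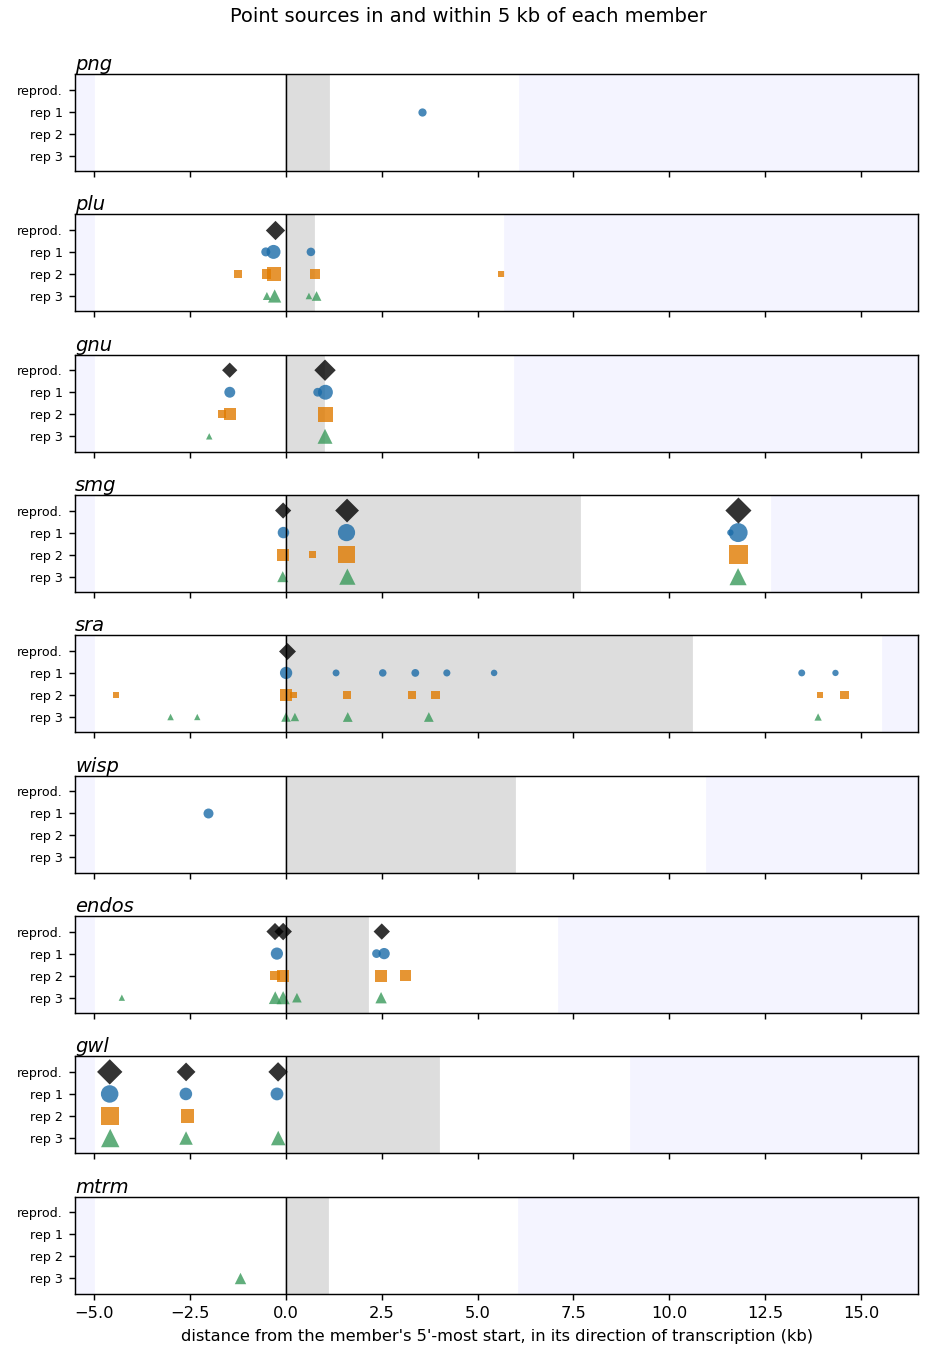
Point sources in the gene body or within 5 kb of each of the 9 genes, by distance in kb from the gene's 5′-most start in its direction of transcription, in the reproducible list (diamonds) and in each replicate list (circles, squares and triangles). Larger markers have a higher rank by signal, grey marks the gene body and pale blue lies outside the window. The windows of png, wisp and mtrm each hold 1 point source of 1 replicate, while smg, endos and gwl each have 3 reproducible ones.

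The replicate and pooled lists held exactly 30000 peaks each and the reproducible list 9624, which were the strongest peaks of the pooled list at identical point sources. A reproducible value is therefore a pooled value with no spread of its own, and the spread is given from the replicates. Signal is the deposited value of each peak, on a scale that was not stated. It is compared within a list by rank (1 is highest) or divided by that list's median, and the read depth behind it is unknown here. A q-value of 0.01 or less was reached by 54.3% to 60.9% of the peaks of a replicate list. The lowest signal in a replicate list was 13.6 to 19.0, so a missing point source means that none was among the 30000 listed. Between 52.8% and 59.3% of a replicate's point sources had a match within 100 bp in another replicate, and pairs of replicate lists shared at most 3 identical intervals.

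The catalytic kinase png and its activating subunit gnu had no peak at their own starts. The PNG complex, a protein kinase found in the egg, releases the translation of maternal mRNAs such as that of cyclin B at egg activation. On X from 1356488 to 1357601 (minus strand), png had no point source within 5 kb in the reproducible list, the pooled list, replicate 2 or replicate 3. Replicate 1 had one, 3560 bp downstream of the png start, in the 5′ UTR of the neighbouring gene CG11417. Its signal of 36.5 ranked 19390 of 30000, with a −log10 q-value of 1.71. The nearest reproducible point source lay 8125 bp downstream of the png start, at rank 7204.

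At gnu, on 3L from 14802380 to 14803360 (minus strand), a strong peak lay beyond the end of the gene. Its reproducible point source was 1018 bp downstream of the gnu start and 174 bp upstream of the start of NHP2, a gene of small nucleolar RNA particles that follows gnu on the same strand after a gap of 211 bp. The signal was 1117.1 at rank 1697. The rank was 1878 in replicate 1, 1499 in replicate 2 and 1856 in replicate 3, and the signal was 8.82 ± 1.57 times the list median (SD, n = 3). The 3 ranks lay close together, and the peak met the definition of a promoter peak for NHP2 and not for gnu. A weaker reproducible peak lay 1469 bp upstream of gnu and 307 bp upstream of CG17839, with a signal of 210.8 at rank 9282, close to the foot of the list. It was matched in replicate 1 (rank 8956) and replicate 2 (rank 5752) and had no match within 100 bp in replicate 3. The gap between gnu and NHP2 is shown because it holds the strongest peak near a PNG complex gene. The stretch chr3L:14802292-14802379 of dm6 is printed 5′ to 3′ on the minus strand, up to the annotated end of gnu, and held no searched motif.
gnu and NHP2 gap: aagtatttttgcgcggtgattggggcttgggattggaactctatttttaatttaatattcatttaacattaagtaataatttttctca

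The remaining subunit of the complex, plu, which encodes an ankyrin repeat protein that activates the kinase with gnu, had a promoter peak that lay closer to another gene. The gene is on 2R from 20262958 to 20263684 (minus strand), and the ribosomal protein gene RpS18 starts 295 bp away on the other strand. The reproducible point source, with a signal of 656.1 at rank 3209, was 300 bp upstream of plu and 5 bp inside RpS18, in its 5′ UTR. The replicate point sources ranked 2805, 3212 and 3847 in replicates 1, 2 and 3, at 5.14 ± 0.376 times the list median (SD, n = 3), and lay within 30 bp of each other. Ranks and positions thus varied little. Each replicate also had weaker point sources around the 3′ end of plu and the start of PCNA, the next gene on the same strand. They were 598 to 797 bp from the plu start and 4 to 203 bp from that of PCNA, at ranks 12878 to 28187. The pooled list placed one of these 726 bp from the plu start at rank 12667, and the reproducible list held none of them.

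Of the genes that act on maternal mRNA, wisp had no peak of its own and smg had the strongest promoter peak of the 9. The gene wisp encodes a cytoplasmic poly(A) polymerase of the GLD-2 family, which lengthens the tails of maternal mRNAs. In its window on X, from 11893943 to 11899920 (plus strand) with 5 kb on either side, the only point source in the lists analysed was in replicate 1. It lay 2033 bp upstream of wisp in the 5′ UTR of sicily, with a signal of 67.6 at rank 12035. The nearest reproducible point source was 5629 bp upstream, at rank 7190.

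The gene smg encodes Smaug, an RNA-binding protein that represses maternal mRNAs and brings the CCR4-NOT deadenylase to them, and its translation depends on PNG. It lies on 3L from 8990317 to 8997989 (minus strand) and has 5 annotated starts. Its strongest peak was inside the gene, in an intron, between a pair of internal starts: the reproducible point source was 147 bp upstream of one and 175 bp downstream of the other. The signal was 2057.8 at rank 739. In replicate 1 the signal was 860.2 at rank 611, in replicate 2 it was 596.9 at rank 664 and in replicate 3 it was 625.6 at rank 1002. The replicate point sources lay within 23 bp of each other, and relative to the list medians the signal was 16.1 ± 0.666 (SD, n = 3). Of the promoter peaks of the 9 genes, this was the only one with no start of another gene within 500 bp.

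A weaker peak sat at the 5′-most start of smg, in the gap of 194 bp before CG5087, which reads the other way. Its reproducible point source was 75 bp upstream of smg and 120 bp upstream of CG5087, with a signal of 275.0 at rank 7457. It ranked 7344, 6301 and 8628 in replicates 1, 2 and 3, at 2.32 ± 0.21 times the list median (SD, n = 3). All 3 values lay far below those of the internal peak, at 16.1 times. The third reproducible point source of the smg window was downstream of the gene, 95 bp upstream of a start of Galk, a galactokinase gene, with a signal of 3631.3. It was the highest of the 13 at rank 310, and ranked 238, 209 and 632 in the replicates. Windows of 50 bases on either side of both smg promoter point sources are printed because they differ in strength and in base composition. They are from dm6, 5′ to 3′ on the minus strand, at chr3L:8996346-8996446 for the internal peak and chr3L:8998014-8998114 for the 5′-most start. Capitals mark runs of 6 or more A.
smg internal peak: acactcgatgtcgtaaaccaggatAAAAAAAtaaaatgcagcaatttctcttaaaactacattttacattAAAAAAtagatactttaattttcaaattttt
smg 5′-most start: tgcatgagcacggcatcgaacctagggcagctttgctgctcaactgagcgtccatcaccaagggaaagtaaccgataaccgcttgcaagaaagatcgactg
GC content was 22.8% at the internal peak and 52.5% at the 5′-most start. Across all 9624 reproducible windows the median was 31.7%, and the middle 50% of windows ran from 25.7% to 39.6%.

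The gene sra encodes Sarah, a regulator of calcineurin that links the calcium signal to the completion of meiosis. On 3R from 16186999 to 16197584 (plus strand), it had a reproducible promoter peak 32 bp inside the gene, in the 5′ UTR and also within Bin1, which overlaps sra and reads the other way. The nearest start of Bin1 was 134 bp from the point source and is 102 bp from that of sra. The reproducible signal was 336.6 at rank 6229. The replicate point sources were 2, -3 and 0 bp from the start, within 5 bp of each other, but their levels differed. Signal was 151.3 (rank 5481) in replicate 1, 130.1 (rank 4706) in replicate 2 and 45.1 (rank 13598) in replicate 3. The mean rank was 7928 ± 4925.3 (SD, n = 3), and 5094 without replicate 3, whose value decided it. Replicate 3 also had point sources at slightly higher ranks farther inside the gene, in a 5′ UTR 1611 bp from the start (rank 12736) and in an intron at 3726 bp (rank 13029). The pooled list held these places at 1579 bp (rank 14748) and 3721 bp (rank 20410), and the reproducible list held neither. Replicates 1 and 2 also had point sources farther inside the gene, all ranked below their promoter points. Among them were 1 at 1306 bp in replicate 1 (rank 26337) and 1 at 1584 bp in replicate 2 (rank 19126).

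The genes gwl and endos form a pathway in which the kinase Greatwall, encoded by gwl, phosphorylates Endosulfine, encoded by endos, which then inhibits the phosphatase PP2A with its B55 subunit. Both had promoter peaks shared with a gene on the other strand. At gwl, on 3R from 18746370 to 18750360 (plus strand), the reproducible point source was 207 bp upstream of gwl and 122 bp upstream of PGS1, in the gap of 328 bp between them, with a signal of 680.1 at rank 3082. It was present in replicate 1 with a signal of 180.6 at rank 4520 and in replicate 3 with a signal of 349.1 at rank 2207. Replicate 2 listed no point source there, its nearest being 2578 bp upstream of gwl, so this peak entered the reproducible list with 2 of 3 replicates.

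Farther upstream of gwl, the peaks were present in every replicate. One was 169 bp upstream of Mekk1, a MAP kinase kinase kinase gene, and 2607 bp upstream of gwl, with a signal of 557.6 at rank 3781, and ranked 4929, 3742 and 3451 in the replicates. The other lay 4599 bp upstream of gwl in an intron of Mekk1, 1675 bp from the nearest start, with a signal of 3070.4 at rank 416. It ranked 523, 418 and 318 in replicates 1, 2 and 3, at 24.5 ± 7.88 times the list median (SD, n = 3). Of the 13 reproducible point sources it was the only one farther than 500 bp from any start. The windows at the gwl promoter and in the Mekk1 intron are shown because one was missing from a replicate and the other was among the strongest. They are from dm6 on the plus strand, at chr3R:18746113-18746213 and chr3R:18741721-18741821. Capitals mark a TATAAA match, here on the other strand, in the first and a run of A in the second.
gwl promoter: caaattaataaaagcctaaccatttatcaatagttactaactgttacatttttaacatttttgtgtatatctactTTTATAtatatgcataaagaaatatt
Mekk1 intron: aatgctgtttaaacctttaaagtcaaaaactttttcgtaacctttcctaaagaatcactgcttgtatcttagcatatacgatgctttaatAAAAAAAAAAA
The first had a GC content of 19.8%, the lowest of the 13, and 4.35% of all reproducible windows were lower.

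At endos, on 3L from 14029579 to 14031706 (minus strand), a pair of adjoining reproducible peaks lay upstream of the 5′-most start, inside the 5′ UTR of CG6650, which overlaps endos on the other strand. The nearer had its point source 74 bp upstream of endos, with a signal of 397.5 at rank 5300, and the farther 287 bp upstream, with a signal of 369.0 at rank 5719. The farther was 81 bp upstream of a second start of CG6650. Replicate 3 had both, at ranks 3958 and 4579, and a weaker point source 54 bp upstream of the other endos start, at rank 13443. Replicate 2 also had both, at ranks 6255 and 13404. Replicate 1 had a single point source 238 bp upstream, at rank 5675, which matched the farther peak alone. The highest promoter peak of endos was thus at the nearer place in replicates 2 and 3 and near the farther one in replicate 1, and signal relative to the list median was 3.57 ± 1.48 (SD, n = 3). The third reproducible peak, 2159 bp downstream of an endos start, was 87 bp upstream of Ptip, the next gene on the same strand, with a signal of 287.8 at rank 7166, and ranked 7913, 5970 and 7554.

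The gene mtrm encodes Matrimony, an inhibitor of Polo kinase in the oocyte. It lies on 3L from 8413012 to 8414103 (plus strand), inside the gene Exo70. No point source lay within 5 kb in the reproducible list, the pooled list, replicate 1 or replicate 2. Replicate 3 had one, 1212 bp upstream of mtrm in the 5′ UTR of Oseg1 and 51 bp from a start of Exo70. Its signal of 100.9 ranked 7528, higher in its list than the single points near png and wisp in theirs. The nearest reproducible point source was 17213 bp away, the farthest for any of the 9 genes.

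Ordered by the highest promoter peak, smg stood apart and the others ran together. The ranks of smg over the replicates, 611 to 1002, did not overlap those of plu, 2805 to 3847, and smg ranked first of the 9 genes in each replicate. The ranks of gwl, 4520 and 2207 in the 2 replicates that had it, overlapped those of plu, of endos (3958 to 6255) and, barely, did not reach those of sra (4706 to 13598). The ranks of plu ended just short of those of endos, and those of endos and sra overlapped. If only the 5′-most start of smg is counted, its rank in the reproducible list is 7457, the lowest of the 5, so its place rests on the internal starts. Among the 5 genes the median rank in the reproducible list was 3209, beside 3916.5 for all 4476 protein-coding genes with a reproducible promoter peak.

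**Figure D2:**
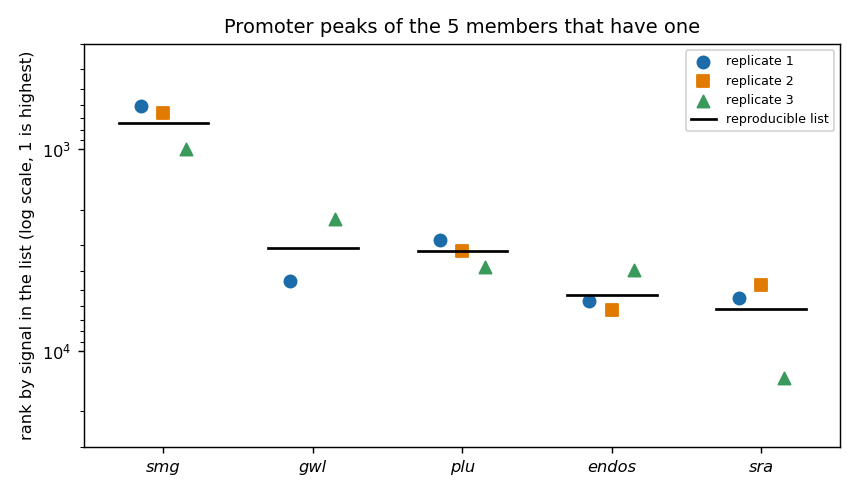
Rank by signal of the highest point source within 500 bp of a start, for the 5 genes that have a reproducible one, on a log axis with the highest rank at the top. Points are replicates 1, 2 and 3, bars are the reproducible list, and gwl has no point for replicate 2. The points of smg lie between 611 and 1002, above all others, and replicate 3 of sra lies lowest at 13598.

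The 9 genes differed in whether a gene on the other strand started nearby. A gene was counted as divergent where one of its starts was within 500 bp of a start on the other strand. Of the 9, 6 were divergent, with gaps between starts from 83 bp (endos and CG6650) to 329 bp (gwl and PGS1), and 5 of these 6 had a promoter peak. The exception was mtrm, whose start is 187 bp from that of Oseg1. The genes without such a neighbour, png, gnu and wisp, had none, so 0 of 3. Of all protein-coding genes, 54.8% of the divergent and 22.1% of the others had a reproducible promoter peak. Since a point source within 500 bp of starts of both genes of a pair counts for both, peaks of plu, sra, endos and gwl and the weaker peak of smg cannot be assigned to either gene of the pair. By distance, the point source was nearer to the other gene at plu (5 bp against 300 bp) and gwl (122 bp against 207 bp), and nearer to the named gene at sra (32 bp against 134 bp) and at the 5′-most start of smg (75 bp against 120 bp). At endos the nearer peak was closer to endos (74 bp against 294 bp) and the farther peak closer to CG6650 (81 bp against 287 bp).

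**Figure D3:**
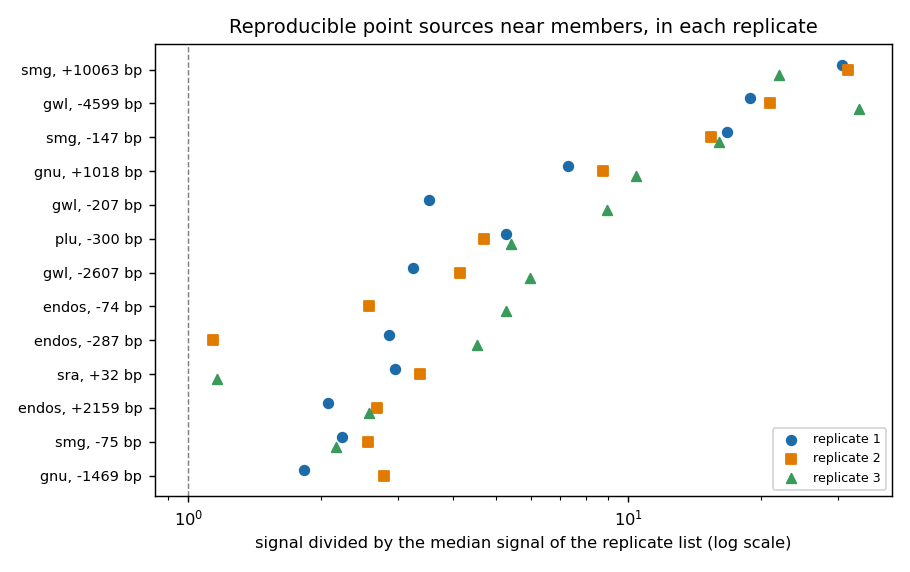
Signal of the 13 reproducible point sources in or within 5 kb of the genes, divided by the median signal of each replicate list, on a log axis, with each row named by the gene and the signed distance from its nearest start. A row shows the replicates with a point source within 100 bp, 3 of them for 10 of the rows and 2 for the remaining 3. Rows run from the highest to the lowest reproducible signal, and the internal peak of smg (-147 bp) has the replicates close together at 15.43 to 16.76.

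Of the 13 reproducible point sources, 12 were within 500 bp of a start of some gene and 7 within 500 bp of a start of the 9 genes. Of all 9624 reproducible point sources, 42.9% were within 500 bp of a start of some gene, but windows drawn around genes lie near starts by construction. In 10 cases all 3 replicates had a point source within 100 bp, and in 3 cases, at gwl (207 bp upstream), endos (74 bp upstream) and gnu (1469 bp upstream), 2 replicates had one. Of all reproducible point sources, 88.9% were matched in all 3 replicates. The peaks were 136 to 708 bp wide with a median of 420 bp, beside 360 bp for the whole reproducible list.

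Short motifs known from fly promoters were counted in the 13 windows beside all 9624 reproducible windows. Motifs were searched on both strands in the 50 bases to either side of each point source. No window held the DRE (TATCGATA), the core of Motif 1 (GTCACACT), the Zelda motif (CAGGTA) or the E-box form CACNTG. These were in 1.68%, 1.07%, 1.95% and 11.1% of all reproducible windows. Other forms of the E-box were not searched. Motif 7, searched only in the form CAGCNCT, was in the sra window and in 4.0% of all, and GAGA (GAGAG) in the farther endos window and in 8.27% of all. TATAAA was in 2 of the 13, at the gwl promoter and near Galk, and in 23.9% of all. A run of 6 A was in 5 of the 13, at the internal smg peak, the nearer endos peak, the plu peak and both places upstream of gwl near Mekk1, and in 25.4% of all. TATAAA and the runs of A were in different windows. A match is a description of the letters and says nothing of what bound there. The median GC content of the 13 windows was 32.7%, with a range from 19.8% to 55.4%.

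Genes that work with the 9 were counted from lists of the same pathways. In all lists together, 60 of 61 symbols were found in the annotation, and 32 of them, or 53.3%, had a reproducible promoter peak. The share of all protein-coding genes was 32.1%, and no test was made of these lists. Of genes for PP2A subunits and mitotic kinases and cyclins, listed around endos and gwl, 9 of 10 had such a peak. The list covers PP2A subunits in general, not only those of the B55 form. The highest were wrd, a PP2A regulatory subunit (signal 2453.0, rank 559), Cdk1 (1068.1, rank 1811) and mts, the PP2A catalytic subunit (792.3, rank 2620). The exception, CycA, had promoter point sources in replicates 1 and 2 only. Of maternal mRNA repressors and storage factors, 11 of 18 had one, led by eIF4EHP, a cap-binding repressor (9299.3, rank 33), pum, which encodes the repressor Pumilio (6334.0, rank 103), and DCP2, the decapping enzyme (3155.7, rank 393). Each of these 3 ranked above smg.

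Of the CCR4-NOT deadenylase, which Smaug recruits, 3 of 9 genes had one, close to the 32.1% of all protein-coding genes, namely Pop2 (611.5) and twin (579.2), both catalytic subunits, and Rga (480.2). Of calcineurin and calcium entry genes, which act with sra, 1 of 7 had one, the channel gene Trpm (1752.9, rank 956). Without a reproducible one, CanA-14F, Pp2B-14D and CanB2 still had promoter point sources in all 3 replicate lists, at ranks from 8327 to 20979. The same held for some genes of other lists. Of poly(A) polymerases and cytoplasmic polyadenylation genes, related to wisp, 3 of 4 had one: orb (1912.7), orb2 (887.5) and hrg (336.3). Gld2, the closest relative of wisp in the list, had no promoter point source in the reproducible list or in any replicate. Of the CTLH ubiquitin ligase, which marks egg proteins for destruction, 3 of 8 had one, Sou among them (1375.2, rank 1320). Of the activators of the anaphase-promoting complex with grau and zld, 3 of 5 had one: fzr (491.2), fzy (320.4) and cort (290.7, rank 7107), the known Grauzone target, which had none in replicate 3 and whose peak ranked below those of all 5 egg activation genes. The gene orb is in a pair of these lists.

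**Figure D4:**
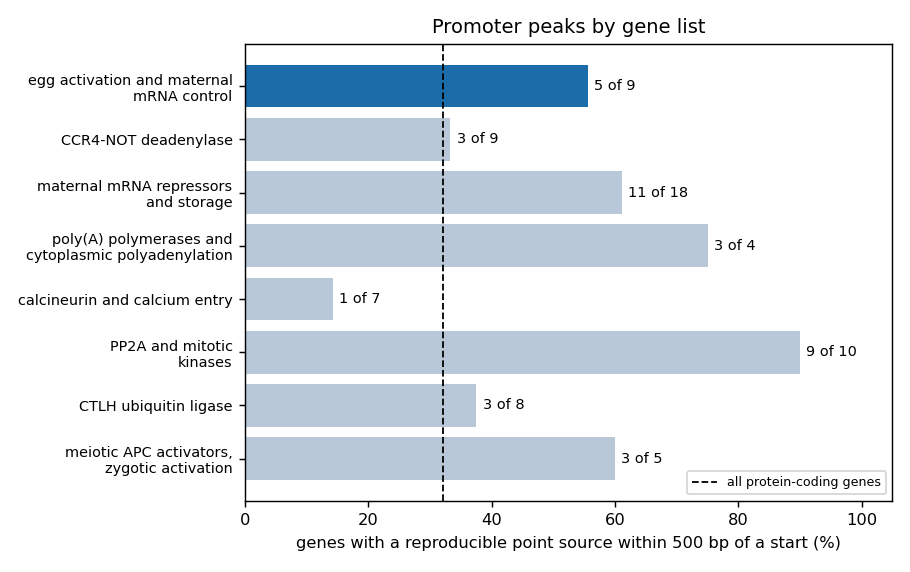
Share of genes (%) with a reproducible point source within 500 bp of a start, for the 9 genes (dark bar) and for lists of genes from the same pathways (pale bars), with counts beside each bar and a dashed line at the 32.1% of all protein-coding genes. The shares run from 1 of 7 for calcineurin and calcium entry to 9 of 10 for PP2A and mitotic kinases, with 5 of 9 for the egg activation genes.

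The genes most like smg, plu, sra and endos in their promoter ranks were found among the 5512 protein-coding genes with a promoter point source in all 3 replicates, by the Euclidean distance of log10 ranks over the 3 lists. For smg they were tin, with ranks of 600, 626 and 1125 (distance 0.057), and Cdk4 (0.068). For plu, sra and endos the first was the gene that shares the peak, RpS18, Bin1 and CG6650, at a distance of 0 by construction. The next was Lar for plu (0.015), Usp15-31 for sra (0.04) and CG8281 for endos (0.021).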

How the data were processed

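The authors deposited peak lists in narrowPeak form on dm6, per the deposited file descriptions: 1 per replicate, 1 called on pooled alignments, each with a control file, and an optimal IDR set made from those 4. The aligner, peak caller and IDR threshold are not given in the sources used here. The deposited signal value per peak and the deposited −log10 q-value are the authors' own; the signal ranked peaks within a list. A further deposited column gives the point source. The labels give a library size range of 200 to 800.

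Gene starts came from Ensembl release 115 without transposable elements and pseudogenes, and sequence from RefSeq Release 6, the same assembly. Sequence from within annotated UTRs is not printed. Named genes followed a rule: the 9 genes, genes with a start within 500 bp of their point sources, their neighbours, cort, up to 3 genes per pathway list by signal, and the 2 closest genes by replicate ranks. CycA, Gld2, CanA-14F, Pp2B-14D, CanB2, grau and zld were named after their values were seen, and neighbours without a peak are mostly left out. A result for 1 listed gene is not reported here. The genes, lists and motifs were chosen with earlier results of these data known. With 1 group, no test was made, and spreads are SDs over 3 replicates. Functions were tested on simulated data. Work used Python 3.11.15, numpy 2.4.6, pandas 2.3.3 and matplotlib 3.10.9.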

Additional observations from a re-analysis of the deposited data

How the results depend on the processing

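The count of 5 genes with a reproducible promoter peak fell to 3 (smg, gwl and plu) in the 4812 strongest reproducible peaks. It was 4 or 5 under every other alternative run. Each replicate list was left out in turn by requiring reproducible peaks to be matched within 100 bp in the other lists only. The count then ranged from 4 to 5. With replicate 1 or 3 left out, gwl was lost, because replicate 2 lists no point source there. The peaks were still called on all 3 replicates pooled, so a call made without a replicate was not tested. The count was 4 with a promoter distance of 250 bp, which lost plu, and in pooled peaks matched in every replicate, which lost gwl. The 6 genes with a reproducible point source within 5 kb stayed 6 with each replicate list left out of the matching. They ranged from 4 to 8 over all alternatives. The 13 point sources became 7 in the 4812 strongest and 26 with a window of 10 kb. The first holds fewer peaks and the second more sequence by construction. With each replicate list left out of the matching in turn, the point sources were 11. The 4 genes with a promoter point source in all 3 replicates were 3 to 4: plu was lost with a promoter distance of 250 bp and sra with replicate lists held to 9624 peaks. No paired analysis was possible because there is 1 group. The read depth behind each peak is unknown, so how far it limits a missing peak was not tested.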
